A study of Mus musculus with 4 samples.

Results

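Integrins are cell surface receptors built from 1 alpha and 1 beta chain, and the alpha chain largely sets which matrix protein is bound. The 9 genes described here encode subunits of integrins that bind the extracellular matrix directly. They are Itga3, Itga6, Itga7 and Itgb4 (laminin receptors), Itga1, Itga2 and Itga11 (collagen receptors), Itga5 (fibronectin receptor) and Itga9 (receptor for tenascin-C, osteopontin and related ligands). They were chosen by name, not by a measured value, but with earlier results of these data known. They are 9 of 22063 genes listed. Itgb4 is the beta chain that pairs with Itga6, and the alpha subunits all pair with Itgb1.

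In the kidney tubule, these receptors anchor epithelial cells to the basement membrane, a sheet of laminin and type IV collagen. Integrin α3β1 and α6-containing integrins bind laminin, α6β4 sits in hemidesmosomes and holds on to keratin filaments through plectin, α1β1 and α2β1 bind collagen, and α5β1 binds the RGD motif of fibronectin. Integrin αvβ6, whose beta chain the siRNA of this study was directed against, is a different receptor that binds latent TGF-β and also fibronectin.

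RNA-sequencing was available for 4 libraries of TKPTS cells, a mouse renal proximal tubular cell line that the labels call TKPT. All cells were kept for 24 h in 1% O2 and 5% CO2 and then for 12 h in normal oxygen. The control group (si-NC, replicates 2 and 3) carries the genotype label WT and received a scrambled siRNA, and the other group (si-Itgb6, replicates 1 and 3) received an siRNA against Itgb6 and is labelled as an Itgb6 knockdown. There was no group without hypoxia. Everything comes from 1 cell line. The study's methods say in general that experiments had biologically independent replicates, but neither they nor the labels say how the replicates of these libraries were grown, so p-values measure only the spread between these libraries, which may be technical. Below, a pair of values for si-NC is always that of replicates 2 and 3, and a pair for si-Itgb6 that of replicates 1 and 3.

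The targeted gene was examined first. Itgb6 had 285 and 284 counts in si-NC against 279 and 260 counts in si-Itgb6, and its log2 fold change was -0.01 (95% confidence interval -0.27 to 0.26, adjusted p = 0.991, edgeR's quasi-likelihood test). The transcript of the targeted gene thus did not separate the groups, and all directions below are between libraries named by their labels only. The study's methods state that the siRNA was checked by qPCR and western blot, and the study reports less αvβ6 protein in hypoxic TKPTS cells given it. It does not say whether those cells were the ones sequenced here. The libraries held 15435080 to 17220286 counts. Replicates of a group differed by more than counting noise, with a chi-square per gene of 3.21 in si-NC and 4.04 in si-Itgb6. As for the labelled cell type, the tubule markers Pax8 and Cdh16 were present, at 115 to 142 FPKM (fragments per kilobase of transcript, scaled to library size) and at 51.2 to 57.2 FPKM, and overlapped between the groups. A gene is called here if it met the study's thresholds (fold change over 1.2 at an unadjusted p under 0.05) in edgeR. Of 8 proximal tubule markers tested, 1 was called higher and 0 lower, where 4.37% and 5.2% of all genes tested were. The called marker was Aqp1, with 9.09 and 10.5 FPKM in si-NC against 14.8 and 14.4 FPKM in si-Itgb6. Of all proximal tubule markers listed, tested or not, 8 were under 1 FPKM in all 4 libraries. Slc34a1, Slc5a2 and Slc22a6, which define the differentiated tubule, were listed at 0. The 6 fibroblast markers were all under 1 FPKM, with sums of 0.593 to 0.715 in si-NC and 0.697 to 1.27 in si-Itgb6. The 5 endothelial markers summed to 0.819 to 1.09 FPKM in si-NC and 0.671 to 2.06 FPKM in si-Itgb6. The 5 macrophage markers were not all near 0, with 3 under 1 FPKM in all 4 libraries (among them Itgam, at most 0.039 FPKM). They summed to 92.6 to 100 FPKM in si-NC and 84.5 to 92.7 FPKM in si-Itgb6, mostly from the remaining genes of that list. Of these, 2 were tested, both lower and without overlap between the groups, and 0 were called. In the lower direction, 25.4% of all genes showed such a separation. An unadjusted p under 0.05 was found for 1 of the 2 in edgeR, beside 9.62% of all genes that were lower at that p.

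Among the alpha subunits chosen here, the laminin receptors carried most of the transcript. Itgav, the alpha partner of Itgb6, had 27.6 FPKM but is not a member, so it does not enter the shares below. Deposited FPKM values are per length, so they can be compared between genes. Itga3 had the highest level of the 27 integrin subunits listed, at 275 FPKM (mean of 4 libraries), and ranked 271 among all genes. Itgb1, the shared beta chain, followed with 174 FPKM and rank 443. Next among the members came Itgb4 (24.2 FPKM), Itga6 (14.5 FPKM), Itga2 (8.56 FPKM), Itga7 (8.51 FPKM), Itga1 (3.33 FPKM) and Itga5 (2.33 FPKM). The ranges over the 4 libraries overlapped between Itga2 and Itga7, so their order was not resolved, and they did not overlap between any other neighbours among these 7 subunits. Itga9 and Itga11 were at or near 0 and overlapped with each other.

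**Figure D1:**
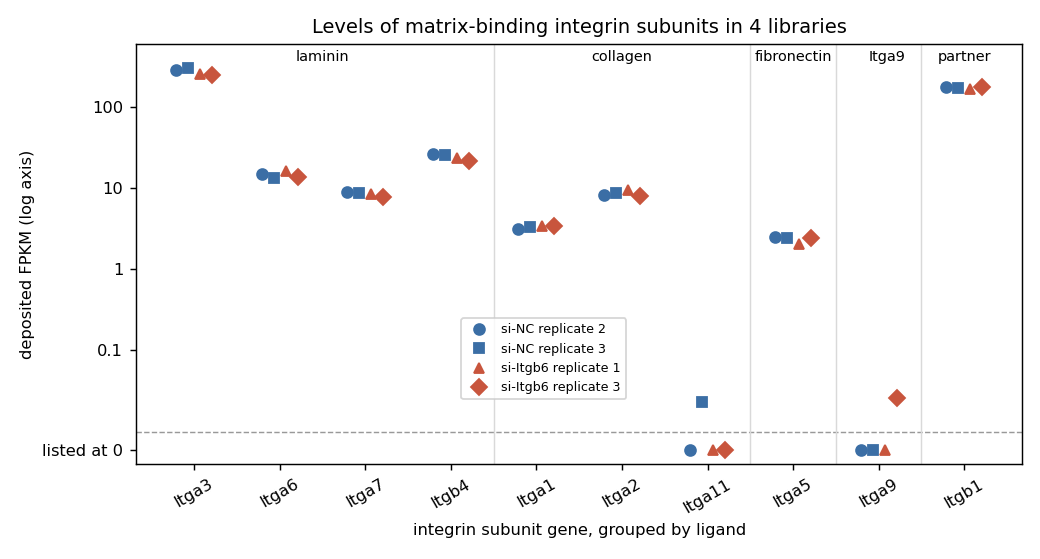
Deposited FPKM (log axis) of the 9 subunits and of Itgb1 in each of the 4 libraries, grouped by ligand; circles and squares are si-NC, triangles and diamonds si-Itgb6, and points under the dashed line are listed at 0. Itga3 sits between 247 and 307 FPKM, above the 169 to 178 FPKM of Itgb1, while Itga9 and Itga11 are at 0 in 3 libraries each.

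Summed over the 8 alpha subunits, the level was 328 and 344 FPKM in si-NC and 295 and 283 FPKM in si-Itgb6. Itga3 made up 88.5% and 89.4% of this sum in si-NC and 86.6% and 87.5% in si-Itgb6. The 3 laminin-binding alpha subunits together held 95.8% of the sum in each si-NC library and 94.96% and 95.1% in the si-Itgb6 libraries. The collagen-binding subunits held 3.45% and 3.51% in si-NC and 4.35% and 4.03% in si-Itgb6. None of these shares overlapped between the groups, although the margins were under 1% of the sum. With 2 libraries per group, the smallest two-sided p of an exact permutation test is 0.333, so no test was made of them, and the collagen-binding share rests in part on the FPKM of Itga2, which is taken up below. The alpha sum exceeded Itgb1 in every library, by 1.84- and 2.01-fold in si-NC and by 1.75- and 1.6-fold in si-Itgb6. These are ratios of transcripts and say nothing of the protein at the surface.

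Between the groups, the subunits differed little. The 7 members that passed the filter on low counts were tested, and 0 of them met the study's thresholds (fold change over 1.2 at an unadjusted p under 0.05) in edgeR, lower or higher. Over all 11727 genes tested, 5.2% were called lower and 4.37% higher. By DESeq2, which gave a p-value for all 9 members, the count was also 0, with 2 members at an unadjusted p under 0.05. At an adjusted p under 0.05, 1 member (Itga3) was lower and 0 were higher, where 2.52% and 2.11% of all genes passed. At an unadjusted p under 0.05 alone, 3 members (Itga3, Itga2 and Itgb4) were lower and 0 higher, against 9.62% and 8.8% of all genes. The groups did not overlap for 4 members that were lower (Itga3, Itgb4, Itga7 and Itga2) and 1 that was higher (Itga1), while 25.4% and 23.8% of all genes showed such a separation. The median log2 fold change of the 7 was -0.12, and that of all genes tested was 0.00017.

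**Figure D2:**
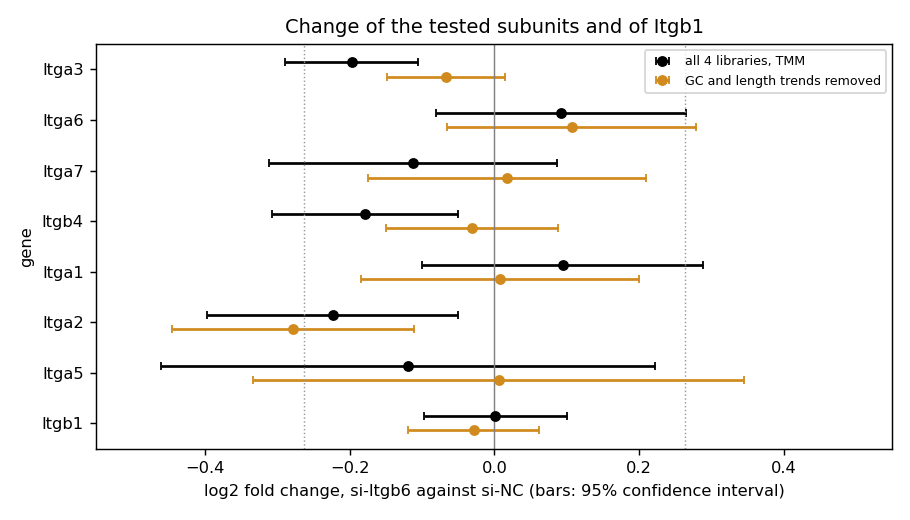
Log2 fold change (si-Itgb6 against si-NC) of the 7 tested subunits and of Itgb1, with 95% confidence intervals, from all 4 libraries (black) and after trends on GC content and length were removed (orange); dotted lines mark a fold change of 1.2. Itga3, Itgb4 and Itga2 have black intervals below 0, and only Itga2 keeps an interval below 0 after removal of the trends.

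Itga3 encodes the alpha chain of α3β1, an epithelial receptor for laminins. It had 20936 and 22994 counts in si-NC against 18049 and 18365 counts in si-Itgb6. Scaled to a common library size (CPM, the count's share of the library), this was 1308 ± 33.6 CPM in si-NC and 1141 ± 35.8 CPM in si-Itgb6 (mean ± SD, n = 2 each). Both libraries labelled si-Itgb6 lay below both si-NC libraries, and the FPKM values did too, at 290 and 307 FPKM against 256 and 247 FPKM. Itga3 fell by 0.20 on the log2 scale (SE 0.045, 95% confidence interval -0.29 to -0.11, adjusted p = 0.00735, edgeR's quasi-likelihood test), a 1.15-fold difference that missed the study's fold change limit. Leaving out 1 library leaves its group with 1 sample, which is then assumed to vary like the other group, here and wherever a library is left out. Leaving out si-NC replicate 2 or 3 raised the adjusted p to 0.22 or 0.213, with log2 fold changes of -0.22 and -0.17.

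Itgb4, whose long cytoplasmic tail links laminin to plectin and the keratin network, had 2417 and 2499 counts in si-NC against 2064 and 2065 counts in si-Itgb6. Again both si-Itgb6 libraries were below both controls, with FPKM values of 26.2 and 25.4 against 23.5 and 21.7. Its log2 fold change of -0.18 did not pass the adjusted test (SE 0.063, 95% confidence interval -0.31 to -0.05, adjusted p = 0.0976, edgeR's quasi-likelihood test). The unadjusted p was above 0.05 when either si-NC replicate 2 or si-Itgb6 replicate 3 was left out, with log2 fold changes of -0.16 and -0.13. Its exons overlap those of B230344G16Rik on the opposite strand, and reads of such pairs cannot be told apart in libraries that do not record strand.

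Itga6 is the alpha chain shared by α6β1 and α6β4. It had 1021 and 958 counts in si-NC against 1042 and 964 counts in si-Itgb6, so the groups overlapped. The log2 fold change was 0.09 (95% confidence interval -0.08 to 0.27, adjusted p = 0.622, edgeR's quasi-likelihood test). Itga6 and its partner Itgb4 thus had opposite signs, and the difference between them was not tested. The FPKM ratio of Itgb4 to Itga6 was 1.74 and 1.92 in si-NC and 1.46 and 1.59 in si-Itgb6. Itgb4 transcript was therefore above that of its alpha partner in every library, and further above it in both si-NC libraries.

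Itga7, best known as the laminin receptor of skeletal muscle, was present at 8.92 and 8.82 FPKM in si-NC and at 8.44 and 7.88 FPKM in si-Itgb6. Its counts were 584 and 613 against 523 and 530. The groups did not overlap, but the log2 fold change of -0.11 did not pass the test (95% confidence interval -0.31 to 0.09, adjusted p = 0.593, edgeR's quasi-likelihood test). Exons of Itga7 overlap those of Mettl7b on the opposite strand. The 4 smooth muscle markers summed to at most 0.761 FPKM in any library.

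Among the collagen receptors, Itga2 encodes the alpha chain of α2β1, an epithelial and platelet receptor for fibrillar collagen. It had 943 and 1062 counts in si-NC against 847 and 783 counts in si-Itgb6, or 59.7 ± 2.59 CPM against 51.1 ± 5.07 CPM (mean ± SD, n = 2 each). The groups did not overlap. The log2 fold change of -0.22 was the largest of the 7 tested subunits (SE 0.085, 95% confidence interval -0.40 to -0.05, adjusted p = 0.133, edgeR's quasi-likelihood test), and its size of 1.17-fold stopped just short of the study's limit of 1.2-fold. The value depended on which libraries were used, at -0.12 without si-Itgb6 replicate 3 and -0.33 without si-Itgb6 replicate 1. In the latter case, and also without si-NC replicate 2 (-0.27), both study thresholds were passed.

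The FPKM values of Itga2 did not follow its counts. They were 8.19 and 8.68 FPKM in si-NC, but 9.45 and 7.94 FPKM in si-Itgb6, so the mean was higher where the counts were lower. The transcript length behind each value can be worked out from the count, the FPKM and the library total. It was 7108 bases in both si-NC libraries, and 5806 and 5905 bases in the si-Itgb6 libraries. Such a shortening by over 1.2-fold was found in 226 of 11710 genes, or 1.93%. Of 3241 genes whose length worked out in this way was constant between libraries to within 0.1%, 97.0% matched the length of an annotated transcript of the same gene in GENCODE vM21 (GRCm38), so the length was read as the mean of the transcripts to which reads had been assigned.

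Itga2 has 2 transcripts in that annotation, on the minus strand of chromosome 13. Itga2-201 (114833081 to 114932100) has 7108 bases in 30 exons, which is the length found in si-NC. Itga2-202 (114880657 to 114901943) has 480 bases in 6 exons and ends inside the sixth exon of Itga2-201. It starts from a first exon of 25 bases that lies within the first intron of Itga2-201, at chr13:114901919-114901943. The first exon of Itga2-201 has 225 bases, at chr13:114931876-114932100. Apart from this first exon, all bases of Itga2-202 lie in exons of Itga2-201, and its annotated coding sequence runs to its last base. The FPKM depends on the lengths of 480 and 7108 bases, not on the starts. Both starts are shown because only there does the short transcript have bases of its own. Each sequence runs from the start codon, with the coding bases of the first exon in capitals and the first bases of the second exon, which both transcripts share, in lower case.

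Itga2-201: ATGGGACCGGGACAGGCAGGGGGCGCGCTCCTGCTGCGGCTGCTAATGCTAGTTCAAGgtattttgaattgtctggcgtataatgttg

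Itga2-202: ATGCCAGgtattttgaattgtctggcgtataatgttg

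The capitals show that the 58 coding bases of the usual first exon are replaced by 7 in Itga2-202. If the reads were divided between only these transcripts, the short one would hold 0.00242 and 0 counts in si-NC, and 13.8 and 11.6 counts in si-Itgb6. That is 1.62% and 1.48% of the gene's counts in the si-Itgb6 libraries, but 19.6% and 18.1% of its FPKM, since the reads of a short transcript are divided by a short length. The FPKM left for Itga2-201 would be 8.19 and 8.68 in si-NC and 7.59 and 6.5 in si-Itgb6. These values follow the counts by the way the division is computed, so their order is not a separate result. Under that division, the assignment of 11.6 to 13.8 reads set the direction of the FPKM difference. Whether the short transcript was present in the cells was not tested, since reads were not analysed here.

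**Figure D3:**
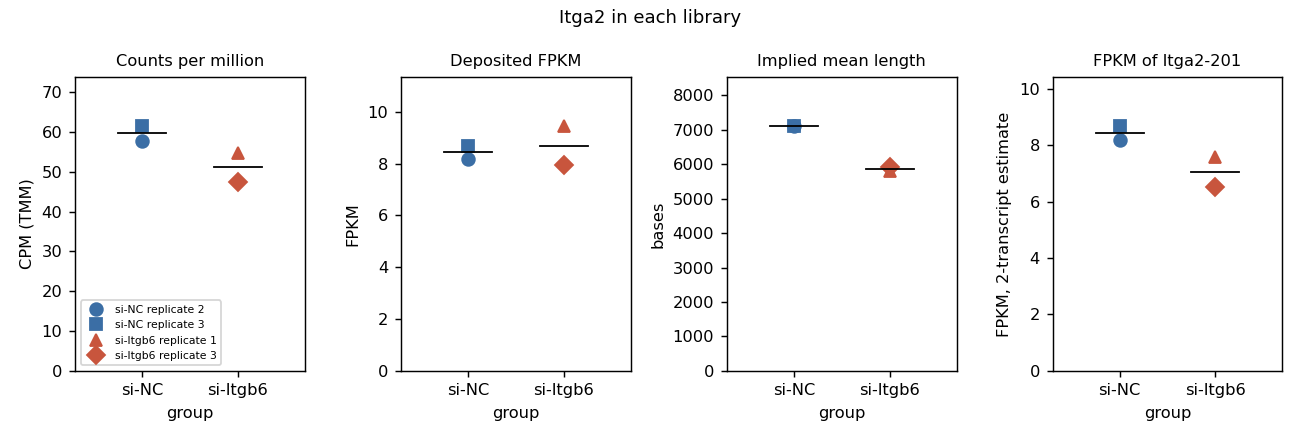
Itga2 in each library (points) with the group mean (line), as CPM, deposited FPKM, implied mean transcript length in bases, and the FPKM left for Itga2-201 if reads were divided between its 2 transcripts. Both si-Itgb6 libraries are below both si-NC libraries in every panel except that of the deposited FPKM, where si-Itgb6 replicate 1 is the highest at 9.45. The last panel follows the counts by the way it is computed.

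Itga1 encodes the alpha chain of α1β1, which prefers the type IV collagen of basement membranes. It had 556 and 634 counts in si-NC against 576 and 632 counts in si-Itgb6. In CPM, 34.1 and 36.7 stood against 37.2 and 38.4, so the groups did not overlap, with the si-Itgb6 libraries higher. The log2 fold change of 0.09 did not pass the test (95% confidence interval -0.10 to 0.29, adjusted p = 0.657, edgeR's quasi-likelihood test), and it was 0.04 without si-NC replicate 2. Its exons overlap those of Gm49395 on the same strand, and its deposited counts were not whole in 2 libraries, so reads may have been divided between these genes. The length worked out from its FPKM was that of Itga1-201 (10967 bases) to within 2 bases in all 4 libraries. The opposite signs of Itga1 and Itga2 were not tested against each other.

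Itga11, a collagen receptor of fibroblasts, had 2 counts in si-NC replicate 3 and 0 counts in the other 3 libraries. A count of 0 allows up to 3 counts, or 0.174 to 0.194 CPM depending on the library (an upper limit for counting error only). Itga9 had 3 counts in si-Itgb6 replicate 3 and 0 elsewhere. Both were at or below this limit in all libraries, so no fold change is given, and the filter kept them out of the main edgeR test. DESeq2 and the fit with no filter did include them.

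Itga5, the fibronectin receptor subunit, had 176 and 182 counts in si-NC against 138 and 176 counts in si-Itgb6. It was lowest in si-Itgb6 replicate 1, at 2.04 FPKM, while the other 3 libraries had 2.41 to 2.48 FPKM, and the groups overlapped in the CPM scale of the test. The log2 fold change was -0.12 (95% confidence interval -0.46 to 0.22, adjusted p = 0.760, edgeR's quasi-likelihood test), an interval that spans 0. Without si-Itgb6 replicate 1 the log2 fold change was 0.0026. Fibronectin itself (Fn1) was abundant, with 17355 to 21068 counts per library.

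Itgb1 completes all of these receptors apart from α6β4. It had 11011 and 11217 counts in si-NC against 9945 and 11245 counts in si-Itgb6. On the log2 scale the difference was 0.0010 (SE 0.049, 95% confidence interval -0.10 to 0.10, adjusted p = 0.996, edgeR's quasi-likelihood test). The FPKM ratio of Itga3 to Itgb1 was 1.63 and 1.80 in si-NC and 1.52 and 1.40 in si-Itgb6, without overlap. The difference between the changes of Itga3 and Itgb1 was not tested.

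GC content moved with these differences. Over 11709 genes of the same 4 libraries, the log2 fold change and the GC content of the longest transcript had a Spearman's rho of -0.364, given as a description only. The median was 0.09 in the lowest GC quartile and -0.10 in the highest, above 54.6% GC. Itga3 (57.9%), Itgb4 (60.0%), Itga7 (57.8%) and Itga5 (57.3%) lie in the highest quartile, and Itga6 (48.9%), Itga2 (43.7%) and Itga1 (42.8%) do not. Once the trends of each library on GC content and length had been removed, the log2 fold change of Itga3 was -0.07 (adjusted p = 0.443, against a range of 5.04e-07 to 0.443 over all alternatives), that of Itgb4 was -0.03, those of Itga7 and Itga5 turned to 0.02 and 0.0062, and those of Itga1 and Itga6 were 0.0077 and 0.11. Itga2, a gene of low GC content, instead had -0.28 (adjusted p = 0.0767, against 0.0274 to 0.606 over all alternatives, edgeR's quasi-likelihood test) and then met the study's thresholds. The median of the 7 became 0.0062. The part of the trend in these results beyond this removal was not tested.

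The epithelial marker genes were also lower where Itga3 and Itgb4 were. All 4 (Epcam, Cdh1, Cldn4 and Tjp1) had an unadjusted p under 0.05, with a summed level of 408 to 426 FPKM in si-NC and 368 to 375 FPKM in si-Itgb6, and 0 of them passed the fold change limit or the adjusted p. Of all genes, 9.62% were lower at that unadjusted p. The 8 injured tubule markers did not move together, with 4 log2 fold changes below 0 and 4 above it, a median of 0.03, and 0 called. Krt8 (-0.20, adjusted p = 0.00881) and Lcn2 (-0.17, adjusted p = 0.0322) were lower, and Havcr1 was higher (0.19, adjusted p = 0.0358, all by edgeR's quasi-likelihood test). Their summed level was 1941 to 1958 FPKM in si-NC and 1812 to 1816 FPKM in si-Itgb6, most of it from Lcn2, Krt18 and Krt8. The part of these values in the result was not tested, and in bulk RNA fewer cells of a type and less RNA per cell cannot be told apart.

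The matrix proteins that these receptors bind, and the proteins that tie them to the cytoskeleton, were read from lists of 117 genes. These lists too were chosen with earlier results of these data known, and 90 of the genes were tested. By the study's thresholds 13 were called lower and 3 higher, beside the 5.2% and 4.37% of all genes given above. Of these 13, 5 were called lower in each of the 4 fits that left out 1 library (Col18a1, Tgm2, Dag1, Tln1 and Src), and leaving out si-NC replicate 2 left only these. Without si-Itgb6 replicate 3, 8 were called lower. With the GC and length trends removed, 5 were called lower (Dag1, Tgm2, Tnc, Tln1 and Tln2) and 2 higher (Krt14 and Crkl). By DESeq2, 11 were called lower and 2 higher. Crkl was the only gene called higher by both tools, so the other gene that DESeq2 called higher was not called by edgeR. Tln2, Kank2, Krit1 and Krt14 were not called by DESeq2 (its unadjusted p was 0.122, 0.152, 0.0933 and 0.0757).

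Of 20 collagen genes on the list, 5 were tested, 3 were called lower and 0 higher, and all 3 also passed the adjusted p. Col18a1, which gives rise to endostatin, had 5483 and 5456 counts in si-NC against 4100 and 4169 in si-Itgb6 and fell by 0.33 on the log2 scale (adjusted p = 0.000264, edgeR's quasi-likelihood test). The paired chains of basement membrane collagen, Col4a1 (-0.31, adjusted p = 0.00762) and Col4a2 (-0.30, adjusted p = 0.0316), fell likewise, but neither was called without si-NC replicate 2 (-0.19 and -0.26), nor Col4a2 without si-Itgb6 replicate 3 (-0.20). The groups did not overlap for any of the 3, a separation in the lower direction that 25.4% of all genes showed. The median of the 5 tested was -0.31. After removal of the GC and length trends the log2 fold changes of Col18a1, Col4a1 and Col4a2 were -0.17, -0.19 and -0.14, and none of them was called. The fibrillar collagens Col1a1 and Col3a1 were among the fibroblast markers under 1 FPKM.

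The laminins, ligands of Itga3, Itga6 and Itga7, were abundant and none was called. Of 11 laminin genes, 10 were tested, and 3 had an unadjusted p under 0.05, all lower, beside 9.62% of all genes. Lamb3, a chain of the laminin found at hemidesmosomes, had 6946 and 7444 counts in si-NC against 5837 and 6455 in si-Itgb6, giving -0.16 on the log2 scale (adjusted p = 0.0672, edgeR's quasi-likelihood test). Lama5, the main alpha chain of mature kidney basement membranes, had -0.04 (adjusted p = 0.739). The sign of Lama5 depended on the library, at -0.18 without si-Itgb6 replicate 1 and 0.08 without si-Itgb6 replicate 3. Lamc1, the gamma chain of most laminins, passed the adjusted p with a change of -0.24 (adjusted p = 0.0389) but not the fold change limit, and it was named after its values were seen. The median of the 10 was -0.08.

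Among 16 genes for fibronectin, tenascin and other ligands, 11 were tested, 3 were called lower and 0 higher. Tgm2, a transglutaminase that binds fibronectin and integrins at the cell surface, had 1516 and 1557 counts in si-NC against 1052 and 1175 in si-Itgb6 and fell by 0.39 on the log2 scale (adjusted p = 0.00107, edgeR's quasi-likelihood test). Ccn1, a matricellular integrin ligand, had -0.28 (adjusted p = 0.00453) and Tnc, the tenascin-C ligand of α9β1, had -0.37 (adjusted p = 0.0951). Without si-NC replicate 2, Ccn1 (-0.23) and Tnc (-0.28) were not called, and Ccn1 was not called without si-Itgb6 replicate 3 (-0.24). Fn1 and osteopontin (Spp1), the most abundant of this list, had -0.10 (adjusted p = 0.194) and -0.01 (adjusted p = 0.969). The median of the 11 was -0.13. Tnc thus had 247 to 348 counts in libraries where Itga9 was at or below 3 counts.

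Of 19 hemidesmosome genes and lateral partners, 18 were tested, 2 were called lower and 1 higher. Plec, the plectin that Itgb4 binds, had 1266 and 1099 counts in si-NC against 923 and 877 in si-Itgb6. It fell by 0.32 on the log2 scale (adjusted p = 0.0278, edgeR's quasi-likelihood test), but it was not called without si-NC replicate 2 (-0.17) or without si-Itgb6 replicate 3 (-0.24). Dag1, the laminin receptor dystroglycan, which is no integrin, had 2811 counts in each si-NC library against 2012 and 2087 in si-Itgb6, with -0.38 (adjusted p = 0.000221). The groups did not overlap for either gene, beside 25.4% of all genes with such a separation in the lower direction. Krt14, a basal keratin, was low, with 28 and 29 counts against 44 and 56, and was called higher at 0.88 without passing the adjusted p (0.14), and it was not called without si-NC replicate 3 (0.86) or without si-Itgb6 replicate 3 (0.74). Bsg and Cd63, the most abundant of the list, had 0.05 (adjusted p = 0.639) and -0.01 (adjusted p = 0.969), and the median of the 18 was 0.01.

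**Figure D4:**
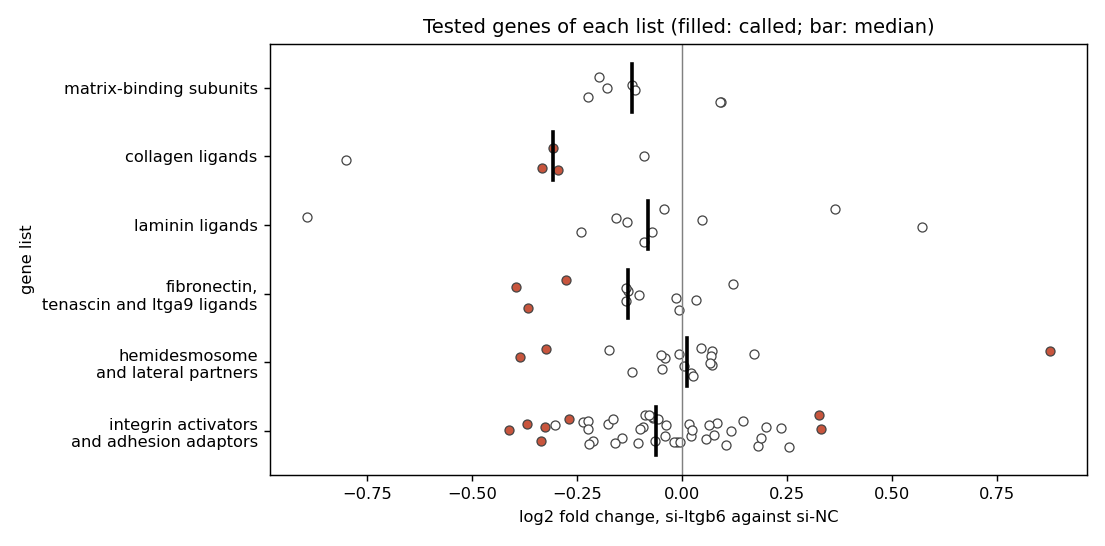
Log2 fold change (si-Itgb6 against si-NC) of each tested gene in the list of subunits and in the lists of ligands and partners; filled points were called by the study's thresholds and bars are list medians. The medians run from -0.31 (collagens, 5 genes) to 0.01 (hemidesmosome genes and lateral partners, 18 genes), and no matrix-binding subunit is filled.

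Integrin activators and adhesion adaptors formed the longest list, with 46 of 51 genes tested, 5 called lower and 2 higher, and a median of -0.06. Tln1, the talin that switches integrins on by binding the beta chain tail, had 2441 and 2298 counts in si-NC against 1655 and 1736 counts in si-Itgb6. It fell by 0.41 on the log2 scale, the most negative value among the called adaptors (adjusted p = 0.000264, edgeR's quasi-likelihood test). The kinase Src had -0.34 (adjusted p = 0.00557) and Rapgef1, an exchange factor for Rap1, had -0.27 (adjusted p = 0.0392). Tln2 (-0.37, adjusted p = 0.202) and Kank2 (-0.33, adjusted p = 0.255), which was named after its values were seen, met the study's thresholds only. They met them in edgeR but not by DESeq2. Without si-NC replicate 2 the values were -0.15 for Rapgef1, -0.12 for Tln2 and -0.24 for Kank2, and none of these was called. Rapgef1 (-0.25) and Tln2 (-0.25) were not called without si-Itgb6 replicate 3 either, nor Kank2 (-0.18) without si-Itgb6 replicate 1. The adaptor Crkl was higher at 0.33 (adjusted p = 0.0103), as was Krit1 at 0.33 (adjusted p = 0.164). Crkl was not called without si-NC replicate 2 (0.26) or without si-Itgb6 replicate 1 (0.23), and Krit1 was not called without si-NC replicate 2 (0.29) or without si-Itgb6 replicate 3 (0.27). Actn4 and Actn1, the alpha-actinins and the most abundant of the list, had -0.17 (adjusted p = 0.0266) and -0.10 (adjusted p = 0.271).

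Among the other integrin subunits, only Itgb8 was called, at the low level of 6 to 45 counts (log2 fold change 1.74, adjusted p = 0.0327, edgeR's quasi-likelihood test), with values of 1.22 to 2.62 when 1 library was left out. With the GC and length trends removed, Itgb8 had 1.63 and no longer passed the adjusted p (0.089, same test). DESeq2 gave it no adjusted p, and it failed the filter of at least 10 counts in every library. Itgav, the partner of Itgb6 and Itgb8, had -0.04 (adjusted p = 0.782), and its level of 27.6 FPKM had a range that overlapped with that of Itgb4. Itga8 and Itgad were listed at 0 in all 4 libraries.

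In GENCODE vM21 (GRCm38), Itga3 is at chr11:95044474-95076801 on the minus strand and Itgb4 at chr11:115974709-116008412 on the plus strand. Itga6 is at chr2:71745616-71858416 (plus) and Itga7 at chr10:128933818-128958282 (plus). Itga1 (chr13:114953096-115101964) and Itga2 (chr13:114833081-114932100) lie close together on the minus strand of chromosome 13, and Itga5 is at chr15:103344286-103366763 (minus). Itga9 (chr9:118606690-118901003) and Itga11 (chr9:62677826-62783982) both lie on the plus strand of chromosome 9. The counts cover each gene as a whole and do not separate splice forms. The lengths worked out from the FPKM were 4350 to 4570 bases for Itga3, below its 3 long coding transcripts of 4636, 4697 and 4861 bases, and 4192 to 4228 bases for Itga6, between its coding transcripts of 4156 and 4310 bases. For both genes, more than 1 transcript had thus been given reads. For Itga7, 3 of 4 libraries gave over 4020 bases, the longest transcript in this annotation, so these lengths cannot all come from it.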

How the data were processed

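Libraries were made from mRNA with a kit that does not mark strand. The authors made and deposited an estimated count per gene and library, which is not normalized, and the authors computed the deposited FPKM values from the same libraries. The aligner, the counting tool and the genome build are not given in the sources used here. The 4 per-library files held the same values as the table of the series (0 differing), and 0 columns of other samples were found. Counts were rounded to integers and filtered with filterByExpr of edgeR 4.0.16 in R 4.3.3 (at least 10 counts, 15 in total), so that 11727 of 22063 genes entered the test, and they were scaled by TMM (factors 0.987 to 1.01). Groups were compared with the quasi-likelihood F test of edgeR, p-values were adjusted over all genes tested (Benjamini-Hochberg), and genes were called by the study's limits (fold change over 1.2, unadjusted p under 0.05). The SE was the log2 fold change divided by the square root of F, and intervals are at the 95% level. The common biological coefficient of variation was 0.0551. FPKM entered no test. The summed level of the proximal tubule markers is not reported here. A limit of 3 counts was used for a count of 0, and it covers counting error only.

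The tests were first run on simulated counts with known changes. Transcript lengths, GC content, coordinates and the Itga2 sequences came from GENCODE vM21 (GRCm38), which may not be the annotation of the authors. The transcript length behind an FPKM value was the count per library total, divided by the FPKM and expressed in bases. The division of Itga2 reads assumed that only its annotated transcripts contribute and that their FPKM values add up.

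The subunits and the gene lists were chosen with earlier results of these data known. The genes named were Itgb6, the 9 subunits, Itgb1 and, from each other list, the called genes (at most 6, by p) and the 2 tested genes with the highest FPKM; others are said to be named after their values were seen. Alternatives were the exact and likelihood ratio tests of edgeR, DESeq2 1.42.0, RLE factors, library size only, no filter, at least 10 counts in every library, a fold change over 1.5, adjusted p-values, removal of the trends on GC content and length by lowess offsets (span 0.3), leaving out each library, and CPM per kilobase of the longest transcript in place of FPKM.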

Additional observations from a re-analysis of the deposited data

How the results depend on the processing

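No paired analysis was possible because the groups share only replicate number 3. Of the subunits, 0 were called lower, and 1 was called at an adjusted p under 0.05 (Itga3) or with the GC and length trends removed (Itga2). Leaving out 1 library gave 0 to 1. Of the ligand and partner genes, 13 were called lower and 3 higher. These counts became 0 and 1 at a fold change over 1.5, 5 lower with the trends removed, and higher 6 with no filter and 1 at an adjusted p under 0.05. Leaving out 1 library gave 5 to 18 lower and 1 to 5 higher. Per kilobase of the longest transcript, the level was 252 for Itga3 and 22.2 for Itgb4. With the trends removed, the log2 fold change turned sign to 0.11 for Cd63, 0.0062 for Itga5, 0.017 for Itga7, -0.028 for Itgb1, 0.020 for Itgb5 and 0.068 for Lama5, and with library size only to -0.014 for Itgb1. Leaving out 1 library, values crossed 0 for Itgav (-0.10 to 0.024), Itgb6 (-0.10 to 0.091), Itgb1 (-0.041 to 0.043), Cd63 (-0.060 to 0.046), Itga5 (-0.26 to 0.0026), Itga6 (-0.012 to 0.19), Bsg (-0.0089 to 0.10) and Lama5 (-0.18 to 0.083); none of these genes was called. Why the GC trend exists was not tested. Leaving out 1 library leaves a group of 1, assumed to vary like the other group.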
